A study of Mus musculus with 4 samples.

Results

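The immunoglobulin light chain loci, kappa on chromosome 6 and lambda on chromosome 16, held 55 plasmablast and 34 B cell CTCF peaks, out of 31086 and 36381 peaks in the whole lists (89 of 67467 in all). A peak belonged to a locus if its midpoint lay between positions 67300000 and 71000000 of chromosome 6 or between 18950000 and 19350000 of chromosome 16 (mm9). Each was classed as shared, where the lists had peaks at it that overlapped by 1 bp or more, or as listed in 1 cell type only. Counted as sites, without merging neighbouring peaks, the 2 loci held 28 shared, 27 plasmablast only and 6 B cell only sites. Over the whole lists, 20.5% of plasmablast and 32.1% of B cell peaks were listed in 1 cell type only.

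Plasmablasts, dividing antibody-secreting cells that descend from activated B cells, were sorted as CD138+ spleen cells from C57BL/6 mice 3 days after 50 µg lipopolysaccharide, a bacterial B cell activator. B cells were the CD43- fraction of C57BL/6 spleens. The mice of both groups were 6 weeks old, and how many were pooled is not given in the sources used here. Chromatin immunoprecipitation followed by sequencing gave 1 CTCF and 1 input library for either cell type (4 samples), and only the CTCF peak lists were used here. The libraries were run on different sequencers, so cell type and instrument cannot be told apart. Without replicates there is no spread between samples and no test between the cell types. Peak lists carry no marker of cell identity, so the cell type labels could not be checked.

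CTCF is a zinc finger protein that halts the extrusion of chromatin loops and so anchors loop ends. A light chain gene is assembled in developing B cells by joining 1 of many V segments to a J segment beside the constant (C) gene. In the kappa locus that joining deletes or inverts the DNA in between, so mature B cells and plasmablasts carry rearranged alleles. The elements Cer and Sis, between the V and J segments, are known to bind CTCF and to restrain the use of the nearest V segments, while enhancers within and 3′ of the J/C part drive transcription and joining. The gene table used for names (RefSeq, GRCm38) lists 162 Igkv segments, of which 60 are pseudogenes, followed by 5 Igkj segments, Igkc, Rpia, Eif2ak3, Tex37 and Foxi3. Its positions are of another build and were not used.

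The scores are the authors' own values, with a median of 19.4 in plasmablasts and 62.1 in B cells, on a scale that is not stated. They are therefore given with the percentile of each peak within its own list, which describes a list and does not measure a change in binding. A peak score also cannot tell weak binding in most cells from binding in few cells. The V part of kappa was taken as everything 5′ of position 70655000, and the J/C end as everything from there to the end of the window. This boundary is an approximate position from general knowledge of the locus, placed 5′ of Cer and Sis, and not from an annotation of mm9.

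The kappa locus had more CTCF peaks in plasmablasts than in B cells, and most of the surplus lay among the V segments. The window held 46 plasmablast peaks and 29 B cell peaks, a ratio of 1.59, whereas chromosome 6 outside the window held 1688 plasmablast and 1894 B cell peaks. Among peaks above the median score of their own list, the window held 18 plasmablast and 17 B cell peaks, a ratio of 1.06. In the V part there were 30 plasmablast and 15 B cell peaks, and in the J/C end 16 plasmablast and 14 B cell peaks. As sites, the V part held 20 that were plasmablast only, 5 that were B cell only and 10 that were shared. The J/C end held 2 plasmablast only, no B cell only and 14 shared sites.

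**Figure D1:**
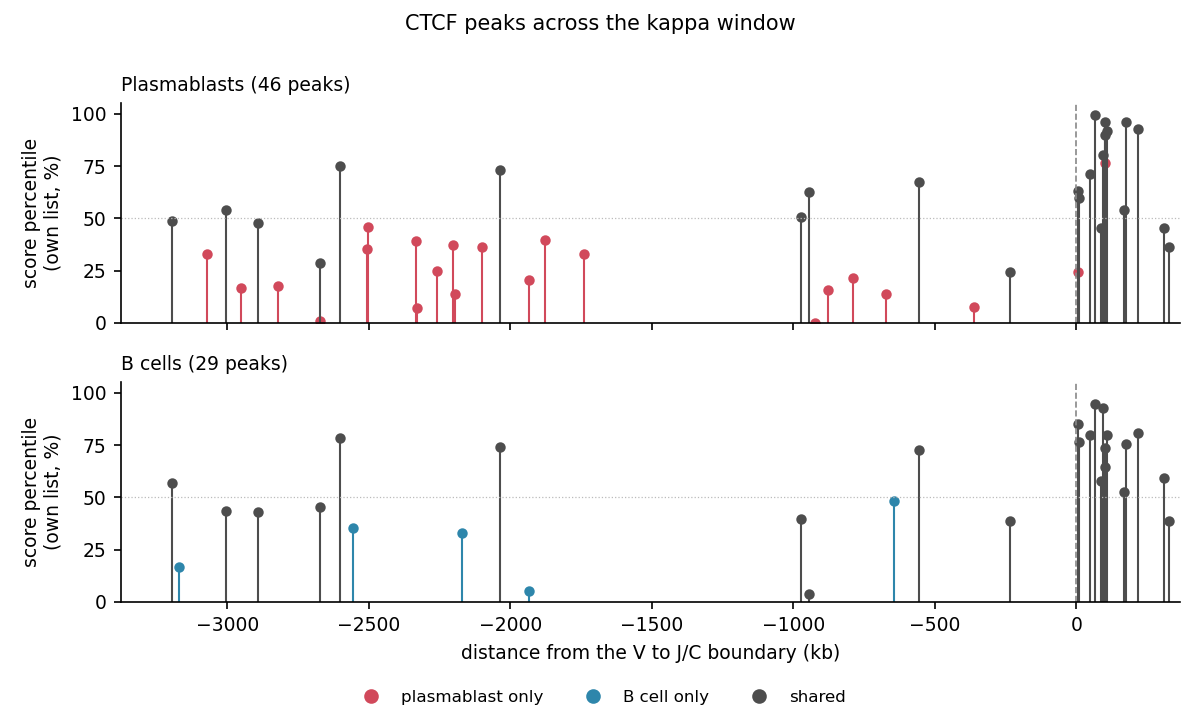
Score percentile of each CTCF peak within its own list (y axis, %) against the distance in kb from the boundary between the V part and the J/C end of kappa (dashed line, negative towards the V segments). The upper panel shows the 46 plasmablast peaks and the lower panel the 29 B cell peaks, with colours for peaks shared by overlap and peaks listed in 1 cell type only; the unshared peaks of the V part all lie below the 50% line of their list.

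Of the plasmablast peaks in the V part, 66.7% were listed in plasmablasts only (20 of 30, exact 95% binomial interval 47.2 to 82.7%). Over the whole plasmablast list this share was 20.5%, and on chromosome 6 outside the kappa window it was 23.4%. Taking from the whole list the same mix of score deciles, 27.4% were unshared. Of the B cell peaks in the V part, 33.3% were listed in B cells only (5 of 15, interval 11.8 to 61.6%), close to the 32.1% of the whole B cell list. At the J/C end 12.5% of the plasmablast peaks were unshared (2 of 16, interval 1.55 to 38.3%), against 11.9% for the same mix of score deciles over the whole list. No B cell peak was unshared there (0 of 14, interval 0 to 23.2%), against 8.47% for the same mix of score deciles, which the interval includes. The plasmablast only share was thus 54.2 percentage points higher in the V part than at the J/C end (Newcombe 95% interval 24.6 to 70.9). The intervals cover counting error only, and peaks of 1 library are not replicates of a cell type. Among peaks above the median score of the list the difference was -8.33 points (0 of 6 in the V part and 1 of 12 at the J/C end), so the contrast between the parts rests on weak peaks. Without the flanks of the window (67500000 to 70700000) it was 35.6 points, with 3 plasmablast peaks left at the J/C end. Of those 3, 1 was unshared (interval 0.84 to 90.6%). The main contrast thus mostly sets the V part against the flank 3′ of the kappa genes, which held 13 of the 16 peaks.

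**Figure D2:**
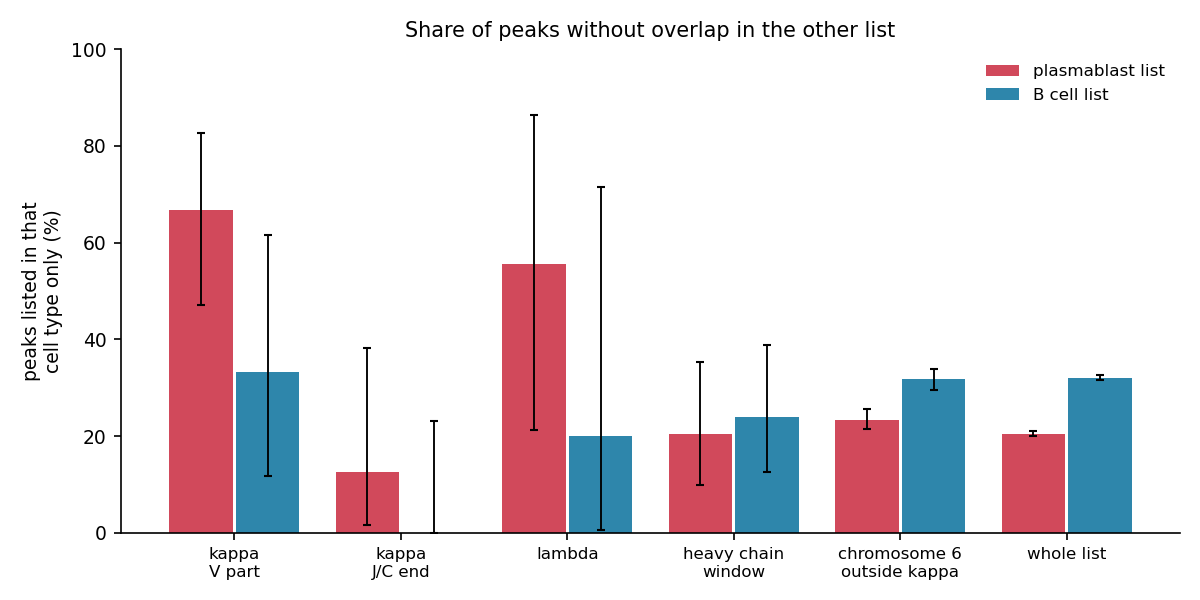
Percentage of peaks without an overlap in the other list (y axis) for the kappa V part, the kappa J/C end, the lambda window, a heavy chain window, the rest of chromosome 6 and the whole lists. Bars are the plasmablast list (left of each pair) and the B cell list (right), with exact 95% binomial intervals as error bars; the plasmablast bar is 66.7% for the kappa V part and 20.5% for the whole list.

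The plasmablast only peaks of the V part were weak in their own list and mostly far from any B cell peak. Their scores ran from 0.2 to 17.3, with a median of 8.6, and their percentiles from 0.0 to 45.8, with a median of 20.9. None of the 20 lay above the median of the plasmablast list, whereas 24.9% of plasmablast only peaks did over the whole list (1589 of 6384). The strongest was at 68151536 to 68151714 (score 17.3), and the weakest, at 69730436 to 69730614 (score 0.2), was also the lowest ranked peak of the whole list. Their midpoints lay a median of 59.5 kb from the nearest B cell midpoint, against 11.1 kb for plasmablast only peaks over the whole list. The V part held 4.47 B cell peaks per Mb, against 14.9 over the autosomes, and this distance was not separated from that sparsity. Just 1 of the 20 had a B cell midpoint within 500 bp, at 68721608 to 68721786, with the B cell peak 323 bp away. The 5 B cell only peaks of the V part also lay below the median of their list. Their scores ran from 15.7 to 58.3 and their percentiles from 5.2 to 48.2. Their median percentile was 32.9, above the 19.8 of B cell only peaks over the whole list. Of those, only 9.1% lay above the list median (1063 of 11679). The highest of the 5 was at 70009084 to 70009388, and the nearest plasmablast midpoint lay 25343 bp away.

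Along the V segments, the plasmablast only peaks were unevenly spread. In 500 kb steps from the start of the window, the plasmablast list held 5, 6, 9, 1, 4 and 4 peaks up to position 70300000, and the B cell list held 4, 3, 3, 0, 2 and 2. Of these, 2, 4, 8, 1, 2 and 3 plasmablast peaks were unshared. Over the V part as a whole 66.7% of plasmablast and 33.3% of B cell peaks were unshared, against 20.5% and 32.1% of the whole lists. Differences between the steps, with few peaks each, were not tested. The third step, from 68300000 to 68800000, differed most, with 8 of 9 plasmablast peaks and 2 of 3 B cell peaks unshared. This step was singled out after its values were seen.

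The V segments were also sparse in CTCF peaks for their length. The V part held 8.94 plasmablast and 4.47 B cell peaks per Mb, against 12.6 and 14.9 per Mb over the autosomes. The J/C end held 46.4 plasmablast and 40.6 B cell peaks per Mb. The widest stretch without a plasmablast peak ran from 68914302 to 69682983 (768.7 kb), and 472 of 30216 gaps between neighbouring autosomal plasmablast peaks were wider. In B cells the widest stretch ran from 68722173 to 69682873 (960.7 kb), with 340 of 35667 autosomal gaps wider. Neither list had a peak in the 768.6 kb that these stretches share. Next to the J/C end, neither list had a peak in the 240.3 kb up to 70659302. Whether reads from these V segment families could be placed uniquely was not tested.

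Among the V segments, 6 plasmablast and 4 B cell peaks lay above the median of their own list, and none of these was unshared. Over the whole lists, 1589 of 15536 such plasmablast peaks and 1063 of 18089 such B cell peaks were unshared. Among the shared sites of the V part, the 3 highest ranked were the same in both lists. The site at 68052585 to 68052763 had a plasmablast score of 37.7 (percentile 75.04) and a B cell score of 157.5 (78.2nd). The site at 68618511 to 68618689 had a plasmablast score of 36.0 (73.2nd percentile) and a B cell score of 138.9 (74.1st). The site at 70097090 to 70097268 had a plasmablast score of 31.2 (67.4th percentile) and a B cell score of 132.4 (72.5th). The percentiles of these 3 sites, plasmablast minus B cell, differed by -3.2, -0.9 and -5.1 points. One further site stood far apart in the lists: the peak at 69708723 to 69708901 scored 27.6 in plasmablasts (62.7th percentile), while its B cell counterpart scored 14.8 (3.8th percentile). That difference of 58.9 percentile points was the widest among the shared sites of both loci, and the site was picked out after its values were seen.

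At the J/C end nearly every CTCF site was listed in both cell types, near the share for such scores over the whole lists. Unshared were 12.5% of plasmablast peaks against 11.9% for the same score deciles, and 0% of B cell peaks against 8.47%. Immediately 3′ of the boundary, where Cer and Sis are known to lie, both lists had peaks at a pair of sites about 5 kb apart. The site at 70659373 to 70659551 had a plasmablast score of 27.8 (62.9th percentile) and a B cell score of 189.9 (85.0th). The site at 70664303 to 70664481 had a plasmablast score of 25.6 (59.8th percentile) and a B cell score of 149.1 (76.4th). Both thus stood lower in the plasmablast list than in the B cell list, with percentile differences of -22.1 and -16.6 points. Over all 24702 shared sites the median difference was -7.2 points, with 16316 sites lower in the plasmablast list and 8386 higher. A difference of this size was not particular to the pair. Of the shared V part sites, 6 stood lower in plasmablasts and 4 higher, and the one at 67980846 to 67981024 differed by -16.7 points. Without an annotation of mm9, which of these peaks is Cer and which is Sis was not determined. A weak plasmablast only peak, at 70659797 to 70659975 (score 9.4, 24.1st percentile), adjoined the first site, with its midpoint 431 bp from the B cell midpoint.

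No peak of either list lay between 70664561 and 70702493, a stretch of 37.9 kb. By its approximate mm9 position, again from general knowledge, Igkc, the kappa constant gene, lies in this stretch together with the Igkj segments and the intronic enhancer. On that placing, the constant gene had no CTCF peak of its own in plasmablasts or in B cells. A stretch of this length was not unusual for the window, where the median gap between neighbouring peaks was 58.0 kb in plasmablasts and 54.1 kb in B cells. Over the autosomes the median gaps were 24.9 and 19.2 kb.

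The strongest CTCF sites of the window lay 3′ of the kappa genes, towards Rpia (a pentose phosphate pathway isomerase) and Eif2ak3 (PERK, a kinase of the unfolded protein response). From position 70702494 to the end of the window there were 13 plasmablast and 12 B cell peaks, and all 12 of the B cell peaks were shared. Over the whole B cell list 67.9% were shared. For the mix of score deciles of the J/C end, 8.47% of that list was unshared. The site at 70718863 to 70719041 ranked highest of the kappa window in both lists. Its plasmablast score was 96.1 (99.6th percentile, rank 137 of 31086) and its B cell score 248.2 (94.8th percentile, rank 1854 of 36381). The second highest B cell peak of the window was at the site at 70747947 to 70748125, which had a plasmablast score of 42.7 (80.2nd percentile) and a B cell score of 233.4 (92.7th). The site nearest the kappa genes, at 70702569 to 70702747, had a plasmablast score of 34.2 (percentile 71.02) and a B cell score of 165.8 (80.1st).

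Other sites of the 3′ flank stood higher among plasmablast peaks. The site at 70756030 to 70756208 had a plasmablast score of 68.7 (96.2nd percentile) and a B cell score of 101.0 (64.4th). The site at 70831030 to 70831208 had a plasmablast score of 68.9 (96.3rd percentile) and a B cell score of 144.5 (75.4th). The site at 70754689 to 70754867 had a plasmablast score of 55.0 (89.8th percentile) and a B cell score of 137.1 (73.7th). Between the first and the last of these 3 sites lay the only unshared peak of the flank, a plasmablast peak at 70755364 to 70755542 (score 39.2, 76.6th percentile), 634 bp from the nearest B cell midpoint. It was also the only plasmablast only peak of the kappa window above the median of its list. Over the 12 shared sites of the flank, 7 ranked higher in the plasmablast list and 5 lower, with a median difference of 2.9 percentile points. Over the whole lists, 8386 shared sites ranked higher in the plasmablast list and 16316 lower.

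**Figure D3:**
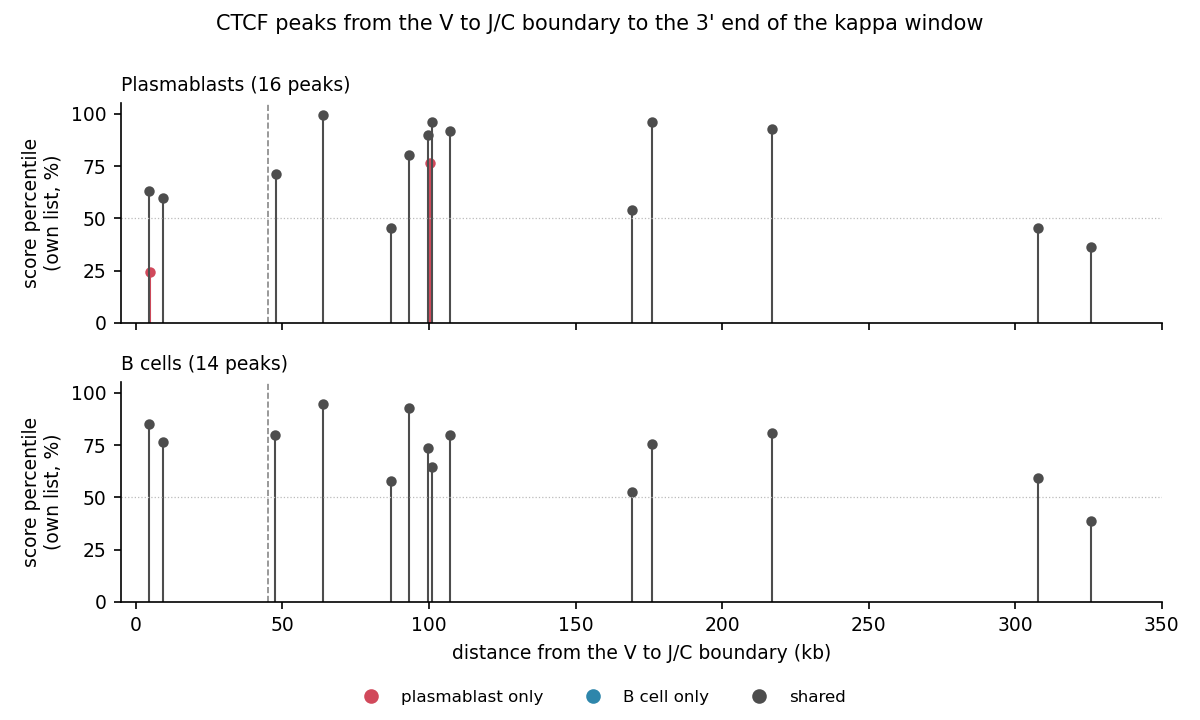
Score percentile within its own list (y axis, %) of each CTCF peak from the V to J/C boundary to the 3′ end of the kappa window, against the distance from that boundary in kb. The upper panel shows 16 plasmablast and the lower panel 14 B cell peaks; the dashed line marks the approximate end of the enhancer region, and the 2 red points in the upper panel are the only unshared peaks.

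Across all 24 shared sites of the kappa window the percentiles in the 2 lists had a Spearman rank correlation of 0.74, against 0.70 over all shared sites. Within the parts it was lower, 0.59 over the 10 sites of the V part and 0.61 over the 14 of the J/C end. These correlations are descriptions across sites, which come from the same pair of libraries. The shared sites of the J/C end ranked high in both lists, with median percentiles of 75.6 in plasmablasts and 75.9 in B cells, against 56.1 and 65.4 over all shared sites. Those of the V part had medians of 52.4 in plasmablasts and 44.5 in B cells.

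**Figure D4:**
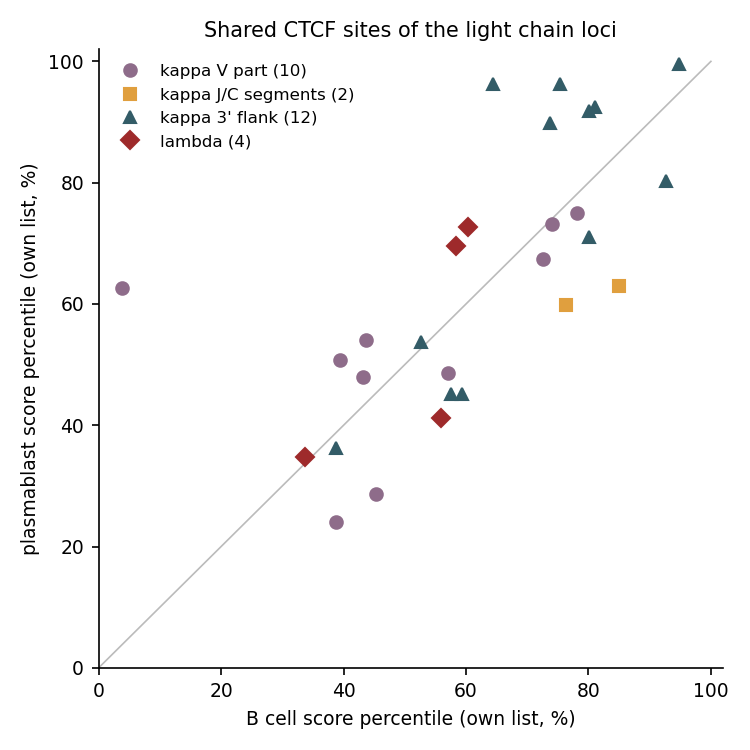
Score percentile of each shared light chain site in the plasmablast list (y axis, %) against its percentile in the B cell list (x axis, %), with 1 point per site and the line of equal percentile. Symbols give the part of the locus (10 sites of the kappa V part, 2 of the J/C segments, 12 of the kappa 3′ flank and 4 of lambda); the V part site at a B cell percentile of 3.8 stands apart.

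The lambda locus, a short window, held few CTCF peaks. For its length it was not sparse in plasmablasts, with 22.5 peaks per Mb against 12.6 over the autosomes, while B cells had 12.5 against 14.9. These densities count neighbouring peaks separately. Merging peaks within 1000 bp left 7 sites from the 9 plasmablast peaks, and 5 from the 5 B cell peaks. Of the unmerged peaks, 3 in either list lay above the median score of that list. As unmerged sites they were 4 shared, 5 plasmablast only and 1 B cell only. Of the plasmablast peaks 55.6% were unshared (5 of 9, exact interval 21.2 to 86.3%), against 20.5% over the whole list and 21.6% for the same mix of score deciles. Of the B cell peaks 20% were unshared (1 of 5, interval 0.505 to 71.6%). The lambda counts are small, and the B cell share could not be told from the 32.1% of the whole B cell list (31.9% for the same score deciles). The lower end of the plasmablast interval, 21.2%, lay just above the 20.5% of the whole list and just below the 21.6%. With midpoints within 500 bp counted as shared, 6 of 9 plasmablast peaks (66.7%) were shared, in place of 4 of 9 (44.4%).

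The mouse lambda locus interleaves its segments, so it has no single V part and J/C end. In the GRCm38 gene table the order from low to high position is Hira, Iglc1, Iglj1, Iglc3, Iglj3, Iglv1, Iglc4, Iglc2, Iglj2, Iglv3, Iglv2 and Olfr164, and this order was assumed for mm9. The window was split at its centre, position 19150000. The side of Iglc1 and Iglc3 (constant genes used mainly with Iglv1) held 5 plasmablast and 3 B cell peaks. The side of Iglc2 (the constant gene used with Iglv2 and Iglv3) held 4 plasmablast and 2 B cell peaks. Unshared in plasmablasts were 3 of 5 peaks on the Iglc1 side (exact interval 14.7 to 94.7%) and 2 of 4 on the Iglc2 side (6.76 to 93.2%). Over the whole plasmablast list 20.5% were unshared.

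On the Iglc1 side, 2 positions were shared. At the outer end, the site at 19003162 to 19003340 had a plasmablast score of 32.9 (69.6th percentile) and a B cell score of 82.4 (58.3rd). Near the centre, the site at 19146794 to 19146972 had a plasmablast score of 35.6 (72.7th percentile) and a B cell score of 88.0 (60.3rd). Each had a plasmablast only peak just beside it, at 19002739 to 19002917 (score 25.6) and at 19146352 to 19146530 (score 14.6), with midpoints 462 and 472 bp from the B cell midpoint. Between them lay a lone plasmablast only peak at 19088203 to 19088381 (score 8.4, 19.8th percentile) and the only B cell only peak, at 19067039 to 19067343 (score 18.5, 10.3rd percentile). These last 2 lay 21.1 kb from each other, and each was weak in its list.

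On the Iglc2 side both shared sites stood below the median of the plasmablast list. The site at 19179379 to 19179557 had a plasmablast score of 12.6 (34.7th percentile) and a B cell score of 36.1 (33.7th). The site at 19236931 to 19237109 had a plasmablast score of 15.1 (41.2nd percentile) and a B cell score of 75.9 (55.9th). The plasmablast only peaks there, at 19246088 to 19246266 (score 10.7) and 19263541 to 19263719 (score 16.6), were 9.1 and 26.6 kb from the nearest B cell midpoint. Which peak lies nearest to Iglc1 or Iglc2 on mm9 was not determined.

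**Figure D5:**
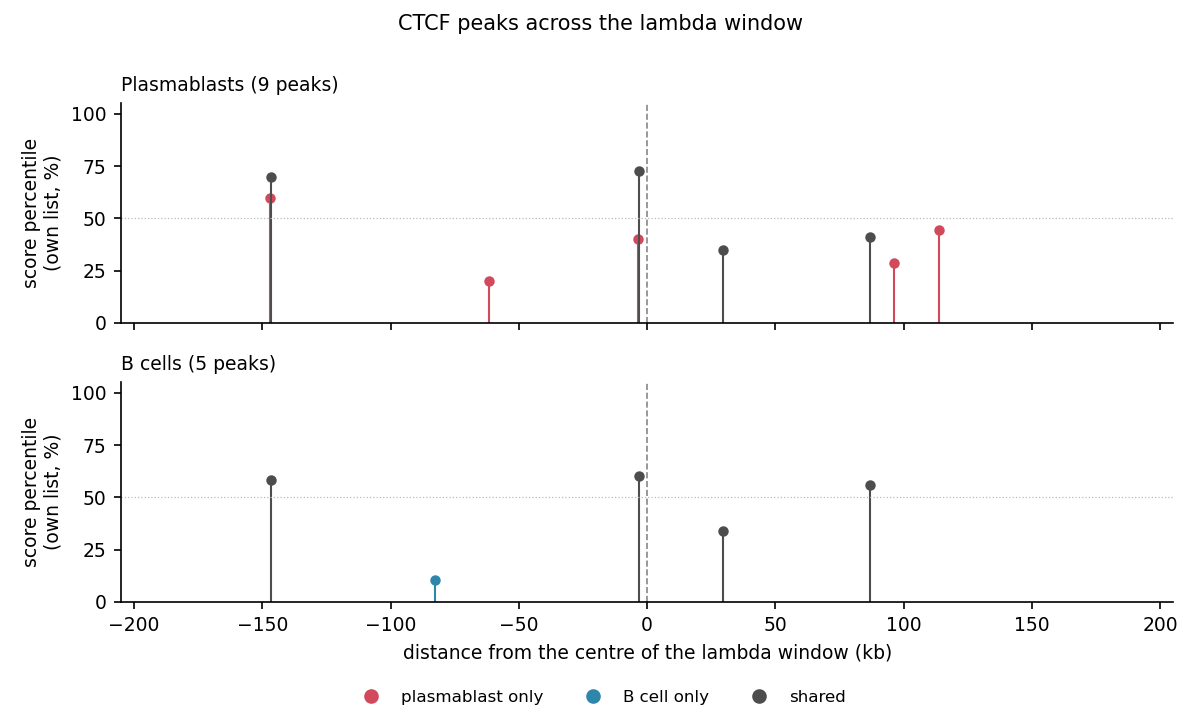
Score percentile of each CTCF peak within its own list (y axis, %) against the distance in kb from the centre of the lambda window (dashed line, negative towards Iglc1). The upper panel shows 9 plasmablast and the lower panel 5 B cell peaks; 4 sites are shared, and 2 of the plasmablast only peaks lie directly beside a shared one.

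Peaks of 1 list lying within 1000 bp of each other were more frequent in the plasmablast peaks of lambda than in the list as a whole. They were 4 of 9 plasmablast peaks in lambda (44.4%) and 5 of 46 in kappa (10.9%), against 5.0% of the whole plasmablast list. All 5 in kappa lay at the J/C end. The B cell list had none in either locus, against 2.9% over the whole B cell list. Plasmablast peaks were 179 bp wide, all but 1 of them, and B cell peaks 305 bp; the part of peak width in these counts was not tested.

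The heavy chain window on chromosome 12 (114300000 to 117300000, an approximate extent from general knowledge) did not show the kappa surplus. It held 44 plasmablast and 46 B cell peaks, of which 20.5% in plasmablasts and 23.9% in B cells were unshared. The corresponding shares over the whole kappa window were 47.8% in plasmablasts (interval 32.9 to 63.1%) and 17.2% in B cells (5.85 to 35.8%). Conversely, 52.2% of the plasmablast and 82.8% of the B cell kappa peaks were shared, against 79.5% and 67.9% over the whole lists. Without the flanks the plasmablast share was 34.4%. The difference between the loci was not tested.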

How the data were processed

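CTCF chromatin immunoprecipitation libraries of plasmablasts and B cells were analysed, 1 per cell type. Per the submitters' processing notes, the authors used Bowtie and HOMER on build mm9; their versions, the calling thresholds and the role of the input were not stated there. The authors deposited 1 peak list per library with a score per peak, whose unit is not stated, and library depth is unknown. Positions were read as BED and are given 1-based. Overlap (at least 1 bp), percentiles of score (ties averaged), exact (Clopper-Pearson) and Newcombe 95% intervals were computed with scipy 1.17.1, pandas 2.3.3, numpy 2.4.6 and Python 3.11.15, and figures were drawn with matplotlib 3.10.9. The overlap step was tested on simulated data. The rule for named peaks took all those of the J/C segments and of lambda, the 3 highest ranked shared V part sites, unshared V part peaks scoring above their own list's median (there were none), and the widest gaps. All other named peaks, in the V part and the 3′ flank, were chosen after their values were seen. The loci and comparisons were chosen with earlier results of these data known. No mm9 sequence or annotation was used here, so no peak sequence or CTCF motif is given.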

Additional observations from a re-analysis of the deposited data

How the results depend on the processing

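Of 39 alternatives tried, 32 stayed within the interval of the main value or, for counts and count ratios, within 1.5 times of it, 6 moved and 1 was reversed. Restricting the lists to peaks above their median score raised the shared percentage in kappa to 94.4% of the plasmablast and 100% of the B cell peaks. In lambda it raised that percentage to 100% of the B cell peaks. Such peaks were mostly shared over the whole lists too, with 1589 of 15536 unshared in plasmablasts and 1063 of 18089 in B cells. The restriction also turned the V part minus J/C end difference to -8.33 points, and brought the kappa count ratio to 1.06. That ratio was still counted as within 1.5 times of the main value, 1.59, although almost no plasmablast surplus was left. A narrower kappa window without the flanks (67500000 to 70700000) lowered the shared percentage of plasmablast peaks to 34.4%. Shortening the B cell list to the length of the plasmablast list gave 100% for the lambda B cell peaks, since the 1 unshared peak was dropped. Moving the lambda split 30 kb higher left 1 B cell peak on the Iglc2 side in place of 2. Midpoint rules of 100 and 500 bp, 50% reciprocal overlap, other kappa boundaries and, chosen after seeing the data, merging peaks within 1000 bp changed no direction. Leaving out a replicate was not possible. No paired analysis was possible because each cell type has 1 library. Since depth is unknown, a site that a list lacks may still be bound in those cells.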
